A study of Homo sapiens with 6 samples.

Results

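Eph receptors and ephrins were followed in SW480, a long-established line of human colorectal cancer cells, after knockdown of PCYT2, an enzyme of phosphatidylethanolamine synthesis. RNA-Seq libraries came from cells with a nontargeting hairpin (shNT, 2 libraries) or with a hairpin that targets PCYT2, either shPcyt2-1 (2 libraries) or shPcyt2-2 (2 libraries), delivered by lentivirus with puromycin selection per the study's methods. The 9 genes described were chosen by symbol from the 22 Eph receptor and ephrin genes of the family, and their Ensembl identifiers were matched through GENCODE release 29: the receptors EPHA1, EPHA2, EPHB2, EPHB3 and EPHB4 and the ligands EFNA1, EFNA4, EFNB1 and EFNB2. They are 9 of 19746 genes in the series, all 9 were listed in all 6 libraries, and all 9 were among the 12756 genes with a mean of at least 0.5 FPKM that were tested. FPKM divides the fragments of a gene by its length and by the size of the library. Nothing says whether the 2 libraries of a group came from separate cultures, so p-values measure only the spread between these libraries, which may be technical.

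Eph receptors are receptor tyrosine kinases that meet their ephrin ligands on the surface of a neighboring cell. Ephrin-A ligands are held in the membrane by a lipid anchor and ephrin-B ligands span it, and signals pass into both the receptor-bearing and the ligand-bearing cell. In the intestine, EPHB2 and EPHB3 are β-catenin/TCF target genes of the crypt and sort cells against ephrin-B ligands, while EPHA2 with its ligand EFNA1 is known from studies of tumor cell adhesion and migration.

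The target of the hairpins was checked first. PCYT2 was at 11.6 and 13.8 FPKM with shNT, 7.11 and 7.36 FPKM with shPcyt2-1 and 6.71 and 6.18 FPKM with shPcyt2-2. It fell by 0.73 on the log2 scale with shPcyt2-1 (adjusted P = 0.00205 by limma) and by 0.88 with shPcyt2-2 (adjusted P = 0.00261 by limma). Between shPcyt2-2 and shPcyt2-1 it differed by -0.15 (95% confidence interval -0.37 to 0.08, adjusted P = 0.309 by limma). Here and below the log2 fold change is on the log2(FPKM + 1) scale, which understates the change of low genes, and adjusted p-values run over all 12756 genes.

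The genes lie at separate loci of GRCh38. EPHA2 (ENSG00000142627, minus strand) spans chr1:16124337-16156087 and EPHB2 (ENSG00000133216, plus strand) spans chr1:22710839-22921500. EFNA4 (ENSG00000243364, chr1:155063731-155069553) and EFNA1 (ENSG00000169242, chr1:155127460-155134857) lie near each other on the plus strand, on either side of EFNA3. EPHB3 (ENSG00000182580) is at chr3:184561784-184582409 on the plus strand. Both EPHB4 (ENSG00000196411, chr7:100802565-100827521) and EPHA1 (ENSG00000146904, chr7:143390289-143408892) are on the minus strand. EFNB2 (ENSG00000125266) is at chr13:106489731-106535662 on the minus strand and EFNB1 (ENSG00000090776) at chrX:68828997-68842147 on the plus strand. The sources used here do not state whether strand was used in counting. EPHA1 overlaps ZYX, on the other strand, by 823 bases, and ZYX had a mean of 22.7 FPKM against 1.11 FPKM for EPHA1. EPHB4 overlaps SLC12A9, also on the other strand (702 bases, mean 14.7 FPKM against 24.5 FPKM for EPHB4). EFNA4 shares 5806 bases with a GENCODE gene model, AL691442.1, that also covers EFNA3, so fragments could be split between them.

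Promoter sequence is shown for 4 of the genes, the abundant receptor and ligand (EPHA2 and EFNB1), a receptor that rose with shPcyt2-1 (EPHA1) and a crypt receptor that differed between the hairpins (EPHB2). Each run covers the 200 bases from 250 to 51 bases before the RefSeq start site (GRCh38.p14), 5′ to 3′ on the gene's strand, with matches to the motifs searched in capitals. The runs are at chr7:143408907-143409106 (minus strand), chr1:16156120-16156319 (minus strand), chr1:22710588-22710787 (plus strand) and chrX:68828771-68828970 (plus strand).
EPHA1: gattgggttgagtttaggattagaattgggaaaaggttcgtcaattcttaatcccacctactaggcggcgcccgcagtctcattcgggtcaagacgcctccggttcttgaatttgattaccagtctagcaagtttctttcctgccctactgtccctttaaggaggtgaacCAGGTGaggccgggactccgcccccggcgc
EPHA2: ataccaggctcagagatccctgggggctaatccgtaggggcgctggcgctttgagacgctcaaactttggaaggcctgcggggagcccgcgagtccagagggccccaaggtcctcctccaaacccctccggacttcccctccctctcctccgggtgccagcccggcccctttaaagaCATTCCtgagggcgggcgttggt
EPHB2: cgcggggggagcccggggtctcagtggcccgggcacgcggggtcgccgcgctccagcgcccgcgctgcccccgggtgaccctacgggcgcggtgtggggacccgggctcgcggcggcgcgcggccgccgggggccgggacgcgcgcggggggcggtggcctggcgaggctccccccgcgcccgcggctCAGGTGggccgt
EFNB1: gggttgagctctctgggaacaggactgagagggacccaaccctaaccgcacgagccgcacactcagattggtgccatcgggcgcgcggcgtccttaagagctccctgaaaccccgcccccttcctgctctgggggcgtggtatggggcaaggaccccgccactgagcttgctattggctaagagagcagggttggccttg

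The motifs searched on both strands were GGAATG (the site of TEAD factors, the DNA-binding partners of YAP1), CACCTG (an E-box bound by SNAIL and ZEB factors), CTTTGAT (TCF/LEF) and TGACTCA (AP-1). None of these overlap in the windows of 300 bases. The capitals in EPHA2 are the reverse complement of the TEAD letters, 73 bases before the start. EPHA2 was the only 1 of the 9 genes with a TEAD match, where 14.0% of 35116 promoter windows in RefSeq hold one. The E-box letters were found in 3 of the 9 genes, EPHA1, EPHB2 and EFNB2, where 20.6% of all windows hold them. These genes have 10 windows, since EPHB2 has 2 that nearly coincide, and 4 of the 10 hold the E-box letters. TCF/LEF and AP-1 letters were found in 0 of the 10, against 2.62% and 4.95% of all windows. The member windows were rich in G and C, with a median of 70.3% against 58.7% over all windows. A match describes letters in a window, not a site in use.

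In shNT cells the receptor EPHA2 and the ligand EFNB1 were the highest of the 9 genes, at 71.2 ± 4.47 FPKM (SD, n = 2) and 64.9 ± 2.85 FPKM (SD, n = 2). They were followed by EPHB4 at 25.7 ± 0.681 FPKM and its order neighbor EFNA1 at 25.1 ± 0.986 FPKM (SD, n = 2 each), whose libraries overlapped. EFNA4 was at 12.1 and 13.9 FPKM, EFNB2 at 6.41 ± 0.226 FPKM, EPHB2 at 3.57 ± 0.463 FPKM, EPHB3 at 2.38 ± 0.561 FPKM and EPHA1 at 0.876 ± 0.147 FPKM (SD, n = 2 each). The other neighbors in this order did not overlap between libraries, though EPHA2 and EFNB1 differed by little more than the spread of EPHA2. Of all tested genes, 6.73% were above EPHA2 and 92.3% were above EPHA1.

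**Figure D1:**
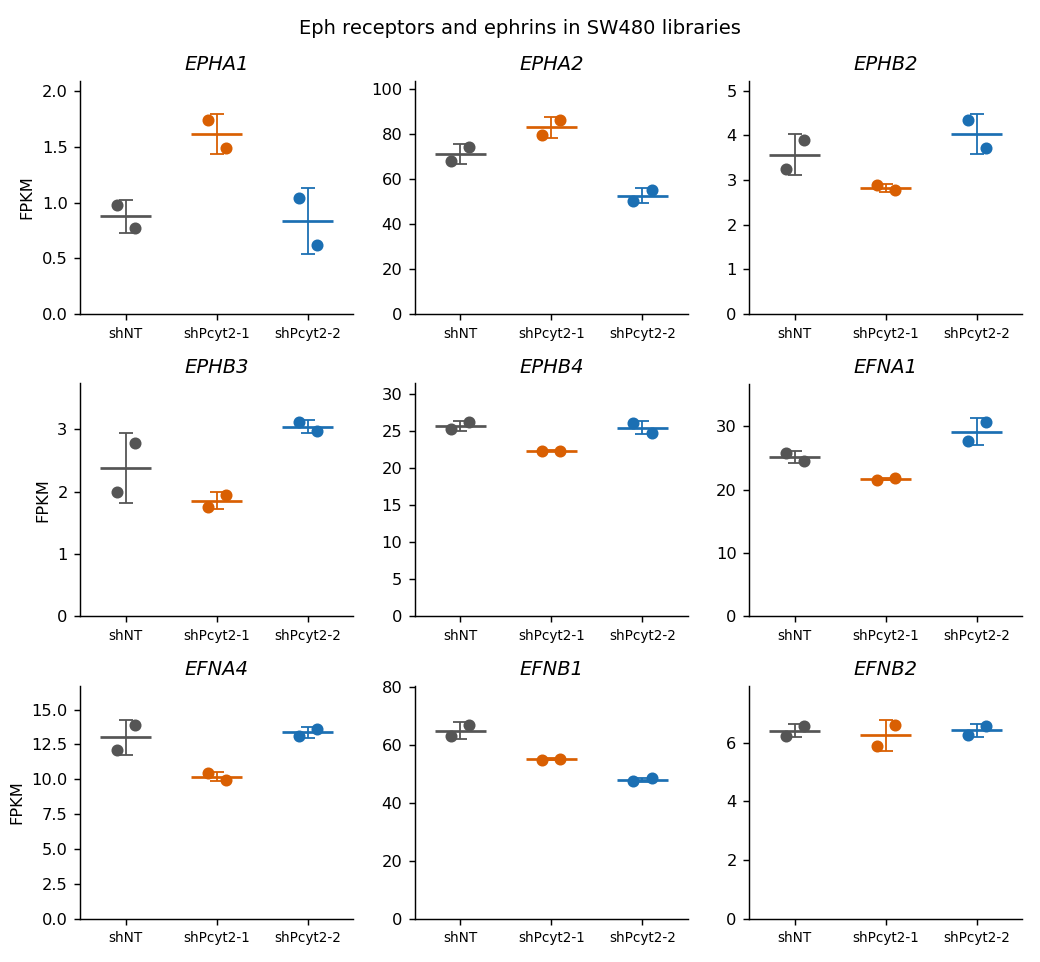
FPKM of the 9 genes in each library (points), with the mean of each group (line) and SD (bars, n = 2), on axes that start at 0. EFNB1 is lower in all 4 knockdown libraries than in both shNT libraries, EPHA2 is highest with shPcyt2-1 and lowest with shPcyt2-2, and EFNB2 overlaps between all groups.

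The question was whether the family's transcripts moved when PCYT2 was lowered, and whether both hairpins moved them alike. EFNB1 was the only 1 of the 9 genes that fell with both hairpins. How many of all tested genes did so was not counted, so this is given as a description only. With shPcyt2-1, EPHA1 rose and EFNA4 fell. With shPcyt2-2, EPHA2 fell. When the hairpins were compared with each other, 7 of the 9 genes differed, where 27.1% of all tested genes did. Leaving out 1 knockdown library took the 7 to between 2 and 4, and the share of all tested genes to between 13.1% and 18.0%.

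With shPcyt2-1, 3 of the 9 genes passed (1 higher and 2 lower), where 26.7% of all tested genes passed (16.5% higher and 10.1% lower). With shPcyt2-2, 2 of the 9 passed, both lower, where 12.4% of all tested genes passed (7.69% higher and 4.74% lower). These shares are near the background or rest on so few genes that nothing is read from them. Of the tested genes that passed, 2109 rose against 1291 that fell with shPcyt2-1, and 981 rose against 604 with shPcyt2-2. With median-ratio scaling of the libraries, 1475 rose against 1711 that fell with shPcyt2-1, and 760 against 845 with shPcyt2-2. After a correction for GC content and length, 1848 rose against 1678 that fell with shPcyt2-1, and 923 against 858 with shPcyt2-2. The median log2 fold change of the 9 genes was -0.20 with shPcyt2-1 and 0.0047 with shPcyt2-2, where that of all tested genes was 0.067 and 0.044. These comparisons share the shNT libraries. With 2 libraries a group, values that do not overlap are common. Of all tested genes, 69.0% did not overlap between shPcyt2-1 and shNT, 57.5% between shPcyt2-2 and shNT and 67.3% between the hairpins. The shares with all groups apart, or with the libraries of a single hairpin outside all others, were not counted. Such patterns are given below as descriptions only.

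EFNB1, a transmembrane ligand of EPHB receptors, was at 62.9 and 66.9 FPKM with shNT, 54.9 and 55.2 FPKM with shPcyt2-1 and 47.5 and 48.4 FPKM with shPcyt2-2. The 3 groups did not overlap, and shPcyt2-2 was the lowest. EFNB1 fell by 0.23 on the log2 scale with shPcyt2-1 (standard error 0.06, adjusted P = 0.0254 by limma) and by 0.43 with shPcyt2-2 (standard error 0.06, adjusted P = 0.00609 by limma). The fall with shPcyt2-1 did not pass with no mean-variance trend (adjusted P = 0.065 by limma), and it was -0.15 after a correction for GC content and length (adjusted P = 0.042 by limma). Taken as 1 group, the 4 knockdown libraries had a log2 fold change of -0.33 against shNT (standard error 0.09, adjusted P = 0.185 by limma). In that pooled fit 0 of the 9 genes passed in limma, where 0.00784% of all tested genes passed. Of the 9, 1 (EFNB1) had an unadjusted p under 0.05, where 16.7% of all tested genes had. PCYT2, the target itself, did not pass in that fit either (log2 fold change -0.80, adjusted P = 0.115 by limma). EFNB1 passed when the hairpins were fitted as separate groups and then averaged, as 16.8% of all tested genes did. Of all tested genes, 30.2% had all 4 knockdown libraries on one side of both shNT libraries, as EFNB1 had.

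EPHA2, the abundant A-class receptor, was at 68.1 and 74.4 FPKM with shNT, 79.6 and 86.4 FPKM with shPcyt2-1 and 50.3 and 55.0 FPKM with shPcyt2-2. The groups did not overlap, and the hairpins lay on opposite sides of shNT. EPHA2 fell by 0.43 with shPcyt2-2 (standard error 0.08, adjusted P = 0.0113 by limma). With shPcyt2-1 the log2 fold change was 0.22 (95% confidence interval 0.05 to 0.39, adjusted P = 0.0609 by limma). The same value passed with the replicate number fitted as a block (adjusted P = 0.0222 by limma). After a correction for GC content and length it was 0.33 and passed (adjusted P = 0.00975 by limma), while with median-ratio scaling it was 0.15 (adjusted P = 0.284 by limma) and with no mean-variance trend its adjusted P was 0.119. Between the hairpins EPHA2 was 0.65 lower on the log2 scale with shPcyt2-2 (log2 fold change -0.65, standard error 0.08, adjusted P = 0.000592 by limma). Its mean was 83.0 ± 4.80 FPKM with shPcyt2-1 and 52.6 ± 3.31 FPKM with shPcyt2-2 (SD, n = 2 each).

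EPHA1, an A-class receptor of epithelia, was the lowest of the 9 genes, at 0.980 and 0.772 FPKM with shNT, 1.74 and 1.49 FPKM with shPcyt2-1 and 1.04 and 0.622 FPKM with shPcyt2-2. Both shPcyt2-1 libraries lay above the other 4. EPHA1 rose by a log2 fold change of 0.48 with shPcyt2-1 (adjusted P = 0.0321 by limma) and was -0.04 with shPcyt2-2 (adjusted P = 0.866 by limma). With a pseudocount of 0.1 FPKM in place of 1 the rise was 0.82 (adjusted P = 0.0466 by limma), and the difference between the hairpins was -0.91 (adjusted P = 0.0305 by limma). ZYX, which overlaps it, had log2 fold changes of -0.07 with shPcyt2-1 (adjusted P = 0.597 by limma) and -0.59 with shPcyt2-2 (adjusted P = 0.00901 by limma). The part of ZYX in the EPHA1 values was not tested.

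EFNA4, an ephrin-A ligand, was at 12.1 and 13.9 FPKM with shNT, 10.4 and 9.98 FPKM with shPcyt2-1 and 13.1 and 13.6 FPKM with shPcyt2-2. The shPcyt2-1 libraries were below all others. EFNA4 fell by 0.32 with shPcyt2-1 (adjusted P = 0.0297 by limma), and its log2 fold change with shPcyt2-2 was 0.04 (95% confidence interval -0.16 to 0.24), which turned to -0.0090 with median-ratio scaling.

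EFNA1, the main ligand of EPHA2, was at 25.8 and 24.4 FPKM with shNT, 21.5 and 21.8 FPKM with shPcyt2-1 and 27.6 and 30.6 FPKM with shPcyt2-2. The groups did not overlap, and EFNA1 was lowest where EPHA2 was highest. Its log2 fold change was -0.20 with shPcyt2-1 (adjusted P = 0.0757 by limma) and 0.20 with shPcyt2-2 (adjusted P = 0.108 by limma), or 0.13 without shPcyt2-2 replicate 2 (adjusted P = 0.344 by limma).

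The B-class receptors did not pass against shNT with either hairpin, though 2 calls were gained under an alternative. EPHB4 with shPcyt2-1 passed under median-ratio scaling (-0.27, adjusted P = 0.0229 by limma), but was at -0.08 after a correction for GC content and length (adjusted P = 0.293 by limma). That correction brought EPHB3 with shPcyt2-2 past the threshold (0.35, adjusted P = 0.0488 by limma) and EPHB3 with shPcyt2-1 from -0.24 to -0.11. EPHB2 was at 3.25 and 3.90 FPKM with shNT, 2.90 and 2.77 FPKM with shPcyt2-1 and 4.35 and 3.72 FPKM with shPcyt2-2. EPHB3 was at 1.99 and 2.78 FPKM, 1.76 and 1.95 FPKM, and 3.11 and 2.97 FPKM in the same order. For both crypt receptors the shPcyt2-1 libraries were below all others. EPHB4, a receptor of EFNB2, was at 25.2 and 26.1 FPKM with shNT, 22.3 and 22.3 FPKM with shPcyt2-1 and 26.0 and 24.8 FPKM with shPcyt2-2, with a log2 fold change of -0.19 with shPcyt2-1 (95% confidence interval -0.35 to -0.04, adjusted P = 0.0652 by limma). EFNB2 was at 6.25 and 6.57 FPKM with shNT, 5.88 and 6.61 FPKM with shPcyt2-1 and 6.28 and 6.58 FPKM with shPcyt2-2. The libraries of EFNB2 overlapped between all groups, and the 95% confidence interval of its log2 fold change was -0.25 to 0.18 with shPcyt2-1 and -0.21 to 0.22 with shPcyt2-2.

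**Figure D2:**
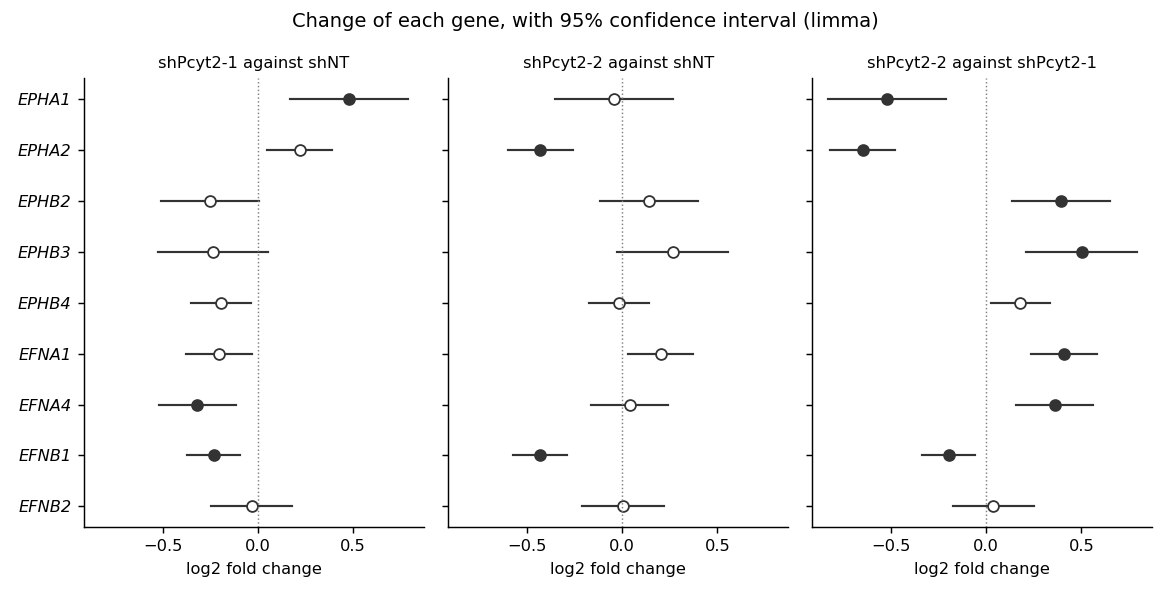
Log2 fold change of the 9 genes (x axis) with each hairpin against shNT and between the hairpins, with 95% confidence intervals. Filled points passed at a limma adjusted p under 0.05 and open points did not. EFNB1 is filled on the negative side in all 3 panels, and 7 of 9 points are filled in the panel of the hairpins against each other.

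The hairpins were then compared with each other. Of the 9 genes, 4 were higher with shPcyt2-2 (EPHB2, EPHB3, EFNA1 and EFNA4) and 3 were lower (EPHA1, EPHA2 and EFNB1), where 27.1% of all tested genes passed (12.9% higher and 14.2% lower). No test of the 9 genes as a list was made. Their median was 0.18 and that of all tested genes -0.023. Of the receptors among the 9, both A-class genes were lower with shPcyt2-2, EPHA1 by a log2 fold change of -0.52 (adjusted P = 0.0216 by limma). The crypt receptors were higher, EPHB2 by 0.39 (adjusted P = 0.0325 by limma) and EPHB3 by 0.50 (adjusted P = 0.0194 by limma). The classes did not move as a whole. Of the tested receptors outside the 9, A-class EPHA4 (-0.52) was lower, EPHA8 (0.72) was higher and EPHA10 (0.01) overlapped, while B-class EPHB6 (-0.54) was lower. Both ephrin-A ligands among the 9 were higher, EFNA1 by 0.41 (adjusted P = 0.00511 by limma) and EFNA4 by 0.36 (adjusted P = 0.0173 by limma). EFNB1 was lower by a log2 fold change of -0.20 (adjusted P = 0.0443 by limma), and did not pass with median-ratio scaling (adjusted P = 0.107) or with no mean-variance trend (adjusted P = 0.103). EPHB4 had a difference of 0.18 (95% confidence interval 0.02 to 0.33, adjusted P = 0.0836 by limma) and EFNB2 of 0.04 (95% confidence interval -0.18 to 0.25). EPHA2 and EFNA1 passed this comparison under every alternative run.

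Single libraries decided several of these calls. With shPcyt2-1, EPHA1 lost its call when any single shNT or shPcyt2-1 library was left out. EFNA4 and EFNB1 lost theirs without shNT replicate 2 or without either shPcyt2-1 replicate. Over all alternatives the log2 fold change ranged from 0.40 to 0.82 (EPHA1), -0.41 to -0.22 (EFNA4) and -0.30 to -0.15 (EFNB1). With shPcyt2-2, EPHA2 and EFNB1 lost their calls without shPcyt2-2 replicate 1, and EPHA2 also without shNT replicate 2. Their log2 fold changes ranged over all alternatives from -0.49 to -0.35 and from -0.48 to -0.36. Between the hairpins, EFNA4 and EFNB1 lost their calls when any single knockdown library was left out. EPHA1, EPHB2 and EPHB3 lost theirs without some of these libraries. Calls over all tested genes fell in the same fits. With shPcyt2-1 their share was 13.6% without shNT replicate 2, 9.10% without shPcyt2-1 replicate 1, 14.5% without shPcyt2-1 replicate 2 and 23.9% without shNT replicate 1. With shPcyt2-2 it was 0.981% without shPcyt2-2 replicate 1 and 3.15% without shNT replicate 2. Between the hairpins it was 13.1% and 16.3% without shPcyt2-1 replicates 1 and 2, and 18.0% and 15.6% without shPcyt2-2 replicates 1 and 2. With no expression limit, 1, 1 and 2 of the 9 genes passed in these comparisons, where 9.27%, 0.628% and 12.3% of all genes passed.

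The rest of the family was read beside these genes. Of the other 13 Eph and ephrin genes, 11 were listed in at least 1 library and 7 were tested. With shPcyt2-1, 5 of the 7 passed, 1 higher and 4 lower, where 26.7% of all tested genes passed (16.5% higher and 10.1% lower). EPHA4, a receptor that binds both classes of ephrin, was at 5.46 and 5.37 FPKM with shNT and rose to 8.51 and 7.57 FPKM with shPcyt2-1 (log2 fold change 0.49, adjusted P = 0.0133 by limma). EPHA8, a receptor known from the nervous system, was at 15.3 and 15.6 FPKM with shNT and fell to 8.44 and 9.57 FPKM (log2 fold change -0.72, adjusted P = 0.00119 by limma). All 4 libraries of EPHA8 in shNT and shPcyt2-2 lay above both shPcyt2-1 libraries.

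The ligands EFNA2, EFNA3 and EFNB3 also fell with shPcyt2-1. EFNA3 was at 22.8 and 24.5 FPKM with shNT, 16.2 and 18.2 FPKM with shPcyt2-1 and 25.6 and 24.9 FPKM with shPcyt2-2 (log2 fold change -0.43 with shPcyt2-1, adjusted P = 0.0062 by limma). EFNB3 was at 3.44 and 3.74 FPKM with shNT, 2.17 and 2.16 FPKM with shPcyt2-1 and 4.52 and 4.14 FPKM with shPcyt2-2 (log2 fold change -0.53 with shPcyt2-1, adjusted P = 0.00643 by limma). For EFNA2 the means were 8.56 ± 0.968 FPKM with shNT, 5.49 ± 1.07 FPKM with shPcyt2-1 and 6.90 ± 0.489 FPKM with shPcyt2-2 (SD, n = 2 each, adjusted P = 0.0142 by limma with shPcyt2-1). These are the 3 tested ephrin genes outside the 9.

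With shPcyt2-2, 0 of these 7 genes passed in limma, where 12.4% of all tested genes did, and 1 had an unadjusted p under 0.05, where 31.1% of all tested genes had. That gene was EPHB6, a receptor without kinase activity, which was at 17.1 and 21.0 FPKM with shNT, 22.9 and 21.7 FPKM with shPcyt2-1 and 16.2 and 14.0 FPKM with shPcyt2-2 (adjusted P = 0.0865 by limma with shPcyt2-2). Between the hairpins 5 of the 7 passed, where 27.1% of all tested genes did, EPHA8, EFNA3 and EFNB3 higher and EPHA4 and EPHB6 lower with shPcyt2-2. EPHA10, which also lacks kinase activity, was between 0.540 and 0.866 FPKM and overlapped between groups. EPHA6 and EPHA7 were listed in 0 libraries. EPHA3 was listed in 2, EPHA5 in 1, EPHB1 in 4 and EFNA5 in 6 libraries, with means of at most 0.0595 FPKM.

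Since FPKM is per gene length, values were summed over each class of the family as a description. EPHA receptors summed to 93.7 ± 4.64 FPKM with shNT, 102 ± 4.87 FPKM with shPcyt2-1 and 75.0 ± 2.56 FPKM with shPcyt2-2 (SD, n = 2 each). EPHA2 made up 76.0%, 81.1% and 70.2% of these sums. EPHB receptors summed to 50.7 ± 4.53, 49.3 ± 0.875 and 47.6 ± 2.99 FPKM in the same order (SD, n = 2 each), within the spread between libraries.

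Ephrin-A ligands summed to 70.4 ± 2.46 FPKM with shNT, 54.6 ± 2.41 FPKM with shPcyt2-1 and 74.7 ± 2.48 FPKM with shPcyt2-2 (SD, n = 2 each). Ephrin-B ligands summed to 74.9 ± 3.29, 63.5 ± 0.734 and 58.7 ± 0.640 FPKM (SD, n = 2 each), of which EFNB1 made up 86.7%, 86.8% and 81.7%. The ephrin-A sum was thus low in the shPcyt2-1 libraries only, and the ephrin-B sum was lower in all 4 knockdown libraries than in shNT. Over all ligands the sums were 0.813 of shNT with shPcyt2-1 and 0.919 of shNT with shPcyt2-2. Over all receptors they were 1.05 and 0.849 of shNT, and the first was 0.999 with median-ratio scaling.

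**Figure D3:**
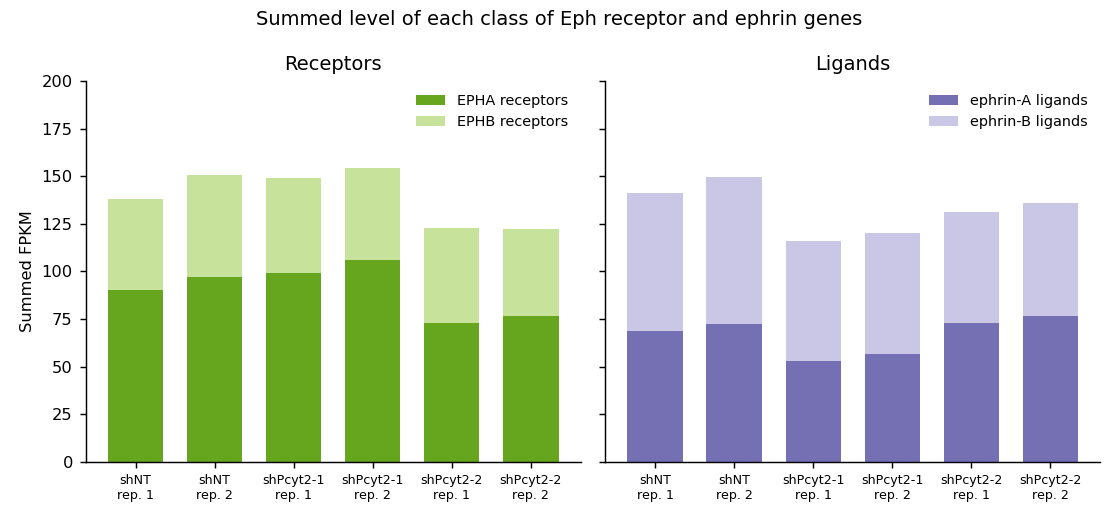
Summed FPKM of EPHA and EPHB receptors (left) and of ephrin-A and ephrin-B ligands (right) in each library, as stacked bars from 0. Receptor sums are lowest with shPcyt2-2, near 122 FPKM, and ligand sums are lowest with shPcyt2-1, at 116 and 120 FPKM.

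Genes that act with the family inside the cell were counted from lists chosen by role. Of 48 tested cytoplasmic partners (kinases, adaptors, exchange factors and their targets), 13 were higher and 6 lower with shPcyt2-1, where 16.5% and 10.1% of all tested genes were. With shPcyt2-2, 5 were higher, where 7.69% of all tested genes were. Their medians were 0.11 with each hairpin, against 0.067 and 0.044 over all tested genes. SDCBP, a PDZ protein that binds ephrin-B tails, was at 28.1 and 25.1 FPKM with shNT, 35.3 and 35.4 FPKM with shPcyt2-1 and 41.0 and 36.4 FPKM with shPcyt2-2, and rose with both hairpins (log2 fold change 0.40, adjusted P = 0.00954 by limma, and 0.53, adjusted P = 0.00788 by limma). CBL, a ubiquitin ligase for receptor tyrosine kinases, rose with both (0.31, adjusted P = 0.0227 by limma, and 0.40, adjusted P = 0.0179 by limma). Its relative CBLB rose with shPcyt2-1, from 0.860 ± 0.0401 to 1.41 ± 0.0654 FPKM (SD, n = 2 each, adjusted P = 0.0291 by limma).

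The partners with the largest falls did so with shPcyt2-1. RGS3, whose PDZ form binds ephrin-B, was at 7.80 and 7.84 FPKM with shNT, 4.25 and 3.69 FPKM with shPcyt2-1 and 6.98 and 7.27 FPKM with shPcyt2-2 (log2 fold change -0.83 with shPcyt2-1, adjusted P = 0.0011 by limma). NCK2, an adaptor of ephrin-B signaling, fell from 17.3 ± 0.811 to 10.8 ± 0.334 FPKM and GRB7, an adaptor of Eph receptors, from 57.4 ± 0.291 to 40.9 ± 5.36 FPKM (SD, n = 2 each, adjusted P = 0.00181 and 0.00583 by limma). With shPcyt2-2 the log2 fold changes of RGS3, NCK2 and GRB7 were -0.12, -0.02 and 0.09, with limma adjusted p-values of 0.427, 0.892 and 0.509.

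Of 9 tested proteases and γ-secretase subunits that cut ephrins and Eph receptors, 5 were higher with shPcyt2-1 (16.5% of all tested genes), and with shPcyt2-2 2 were higher and 1 lower (7.69% and 4.74% of all tested genes). ADAM17 was at 11.7 and 11.5 FPKM with shNT, 17.7 and 18.2 FPKM with shPcyt2-1 and 10.9 and 11.1 FPKM with shPcyt2-2 (log2 fold change 0.58 with shPcyt2-1, adjusted P = 0.0016 by limma). MMP14, a membrane protease that cuts EPHA2, rose from 8.74 ± 0.518 to 12.5 ± 0.758 FPKM with shPcyt2-1 and fell to 6.79 ± 0.0312 FPKM with shPcyt2-2 (SD, n = 2 each, adjusted P = 0.00617 by limma and 0.0455). ADAM10, a sheddase of ephrins, rose from 4.13 ± 0.334 to 5.88 ± 0.287 FPKM with shPcyt2-1 (SD, n = 2 each, adjusted P = 0.0267 by limma).

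Of 14 crypt β-catenin/TCF target genes, the class to which EPHB2 and EPHB3 belong, 1 was higher and 6 lower with shPcyt2-1 (16.5% and 10.1% of all tested genes), and 1 was higher with shPcyt2-2 (7.69% of all tested genes). NOTUM, a secreted Wnt inhibitor, was at 129 and 153 FPKM with shNT, 99.8 and 100.2 FPKM with shPcyt2-1 and 180 and 166 FPKM with shPcyt2-2, so it fell with the first hairpin (adjusted P = 0.0043 by limma) and rose with the second (adjusted P = 0.0472 by limma). ASCL2, a stem cell transcription factor of the crypt, fell from 65.5 ± 10.8 to 48.5 ± 0.964 FPKM with shPcyt2-1, and TCF7 from 14.2 ± 1.62 to 10.4 ± 0.151 FPKM (SD, n = 2 each, adjusted P = 0.0212 and 0.0121 by limma). PROX1 rose from 18.7 ± 1.10 to 24.5 ± 0.281 FPKM with shPcyt2-1 (SD, n = 2 each, adjusted P = 0.0328 by limma). Between the hairpins 4 of the 14 passed, all higher with shPcyt2-2, where 27.1% of all tested genes passed (12.9% higher).

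**Figure D4:**
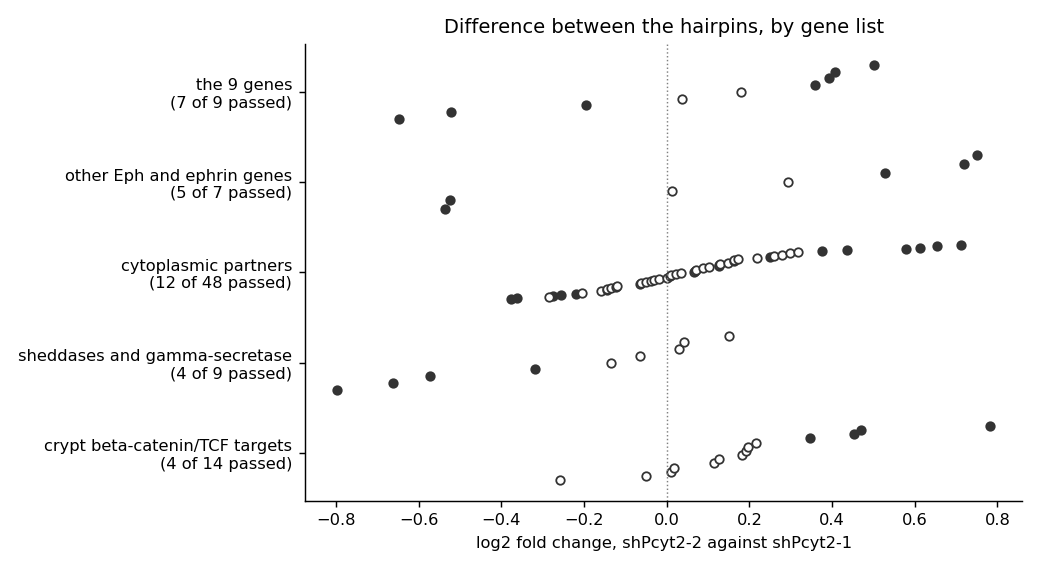
Log2 fold change of shPcyt2-2 against shPcyt2-1 (x axis) for each tested gene, by list, with genes spread vertically within a list by rank. Filled points passed at a limma adjusted p under 0.05, which 7 of the 9 genes, 5 of 7 other family genes, 12 of 48 partners, 4 of 9 proteases and 4 of 14 crypt targets did, beside 27.1% of all tested genes.

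Of 8 markers of colon epithelium, EPCAM, KRT8, KRT18, KRT19, CDH1, VIL1 and CDX2 were listed in all 6 libraries. KRT20, a keratin of differentiated colon epithelium, was listed in 3 libraries, at no more than 0.095 FPKM, and was not tested. The marker list summed to between 6257 and 8769 FPKM, with KRT8 highest, at a mean of 3377 FPKM. The sum was 8210 and 8769 FPKM with shNT, 8432 and 8525 FPKM with shPcyt2-1 and 6257 and 6554 FPKM with shPcyt2-2. Of 7 tested markers, KRT8, KRT18 and KRT19 were lower with shPcyt2-2 (4.74% of all tested genes), where EPHA2 and EFNB1 were also lower. The other 4 did not pass with shPcyt2-2, with log2 fold changes of 0.19 for CDH1, 0.14 for VIL1, 0.11 for EPCAM and -0.06 for CDX2, so the lower sum was carried by the 3 keratins. CDX2 fell with shPcyt2-1, from 16.2 ± 0.968 to 9.94 ± 0.0936 FPKM (SD, n = 2 each, adjusted P = 0.00138 by limma). Their part in the changes of the Eph and ephrin genes was not tested. The other lists had lower sums. Fibroblast markers summed to 2.25 and 2.44 FPKM with shNT and to between 3.56 and 4.10 FPKM in the 4 knockdown libraries, with COL3A1 listed in none. LUM had the highest mean over the 6 libraries, at 1.42 FPKM, followed by COL1A1 at 1.33 FPKM, which was above LUM with shNT and shPcyt2-2. LUM was at 0.826 ± 0.0523 FPKM with shNT and 2.21 ± 0.0508 FPKM with shPcyt2-1 (SD, n = 2 each, adjusted P = 0.00192 by limma). Immune markers summed to between 17.1 and 23.7 FPKM, nearly all CD68, with PTPRC listed in none, and endothelial markers to between 0.513 and 0.769 FPKM.

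Genes whose log2(FPKM + 1) values followed the abundant receptor and ligand over the 6 libraries were taken by Pearson's r, as a description. Those most like EPHA2 were UNC13D, HMGA1 and AKIP1, each at an r of 0.998, and 526 genes had an r over 0.9. Those most like EFNB1 were COMTD1 (r = 0.998), TRIM65 (r = 0.997) and PPP1R14B (r = 0.996), among 287 genes over 0.9. With 6 libraries in 3 groups, such values follow the group means.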

How the data were processed

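RNA-Seq of 6 SW480 libraries was analysed. The authors deposited 1 table of normalized values per library, read as FPKM from the values, which are not whole, list only genes above 0 and sum to between 396467 and 402612; TPM over part of the genes cannot be told apart. The submitters' processing notes name builds of 2 species, GRCh38 and GRCm38 (mm10), with no role. The aligner and annotation are not given in the sources used here, and the labels name 2 library kits. The study's methods name a count-based test, which these values do not allow.

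Rows of 115 repeated identifiers were summed, and 999 groups with identical values above 0 in at least 3 libraries were merged (EPHA1 and EPHB6 each with an unnamed identifier). That minimum was taken after several had been compared on these data, because it gave the gene number of an earlier analysis. Genes with a mean of at least 0.5 FPKM were tested with limma 3.58.1 (R 4.3.3) after adding 1 and taking log2, with the variance trended on the mean and P values adjusted by Benjamini-Hochberg at 0.05. Hairpins were compared in a fit of 3 groups and pooled in a fit of 2. Scripts were tested on simulated data. A first pass mark for that test, set for changes of every size, was not met for small changes. It was replaced by marks on sign, on larger changes and on the share of false calls. A gene that did not pass is therefore not read as unchanged. Depth in reads is unknown. The commonest lowest step of value times length gave a relative depth of 27.0 and 25.6 (shNT), 18.3 and 25.6 (shPcyt2-1) and 25.0 and 22.2 (shPcyt2-2) fragments per FPKM and kilobase, an estimate.

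The genes and lists were chosen with earlier results of these data known. Named genes are the 22 family genes, PCYT2, up to 3 higher and 3 lower per other list with the largest change among those that passed with a hairpin, and the 3 genes most correlated with EPHA2 and with EFNB1. ZYX, SLC12A9, KRT8, EPCAM, CDH1, VIL1, KRT20, COL1A1 and CD68 were named after their values were seen. Alternatives (18) covered the pseudocount, expression limit, replicate number, scaling, variance model, GC content and length, repeated rows, merging, libraries in the fit and leaving out each library. Promoters came from RefSeq (GRCh38.p14). Figures were drawn with matplotlib.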

Additional observations from a re-analysis of the deposited data

Results flagged for a closer look

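The effects of the hairpins differed from each other, by the limma test of shPcyt2-2 against shPcyt2-1, for 29 of the 48 tested genes named, where 27.1% of all tested genes differed. Many of the 48 were named for a large change with 1 hairpin or for following EPHA2 or EFNB1, which favors a difference. All values are log2 fold changes in that comparison, over the same 4 libraries, so they are not independent. Of the 9 genes, EPHA1 (-0.52), EPHA2 (-0.65) and EFNB1 (-0.20) were lower with shPcyt2-2, and EPHB2 (0.39), EPHB3 (0.50), EFNA1 (0.41) and EFNA4 (0.36) were higher. Of the other family genes, EPHA4 (-0.52) and EPHB6 (-0.54) were lower and EPHA8 (0.72), EFNA3 (0.53) and EFNB3 (0.75) were higher. Among the partners CBLB (-0.36) was lower, and NCK2 (0.61), GRB7 (0.58) and RGS3 (0.71) were higher. The proteases ADAM17 (-0.66) and MMP14 (-0.80) were lower, and the crypt target NOTUM (0.78) was higher. Of the markers, KRT8 (-0.36), KRT18 (-0.47), KRT19 (-0.50) and LUM (-0.53) were lower and CDX2 (0.60) was higher. ZYX (-0.52), UNC13D (-0.70), HMGA1 (-0.58), AKIP1 (-0.58) and PPP1R14B (-0.47) were lower. PCYT2 itself differed between the hairpins by -0.15 (adjusted P = 0.309 by limma). The cause of the differences between the hairpins was not tested. Groups of 2 libraries are too small to tell whether 1 of them lies apart.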

How the results depend on the processing

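The count-based tests planned for counts were not run, since the values are not counts. Without an expression limit, 1 gene of the 9 passed with shPcyt2-1, 1 with shPcyt2-2 and 2 between the hairpins. Leaving out 1 library at a time, the counts lay between 0 and 3, 0 and 2, and 2 and 7; a lone library was then assumed to vary like the other groups. In the pooled comparison the mean of the hairpins from the 3-group fit gave 1 gene (EFNB1) in place of 0, where 2142 of all tested genes passed in place of 1, and a PCYT2 value of -0.80 that passed (adjusted P = 0.00334 by limma). PCYT2 differed between the hairpins by -0.20 after a correction for GC content and length (adjusted P = 0.0431 by limma).

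Values that changed sign had not passed. With median-ratio scaling these were EFNA4 (-0.0090) and EFNB2 (-0.041) with shPcyt2-2 and EPHB3 (-0.029) in the pooled fit. After that correction, with or without the replicate block, they were EPHB4 (0.064) and EFNB2 (-0.078) with shPcyt2-2 and EFNA1 (0.032) in the pooled fit. With libraries left out, pooled values ranged from -0.093 to 0.070 for EFNA1, -0.045 to 0.017 for EFNB2, -0.23 to 0.024 for EPHA2, -0.16 to 0.048 for EPHB2 and -0.16 to 0.18 for EPHB3. With shPcyt2-2 they ranged from -0.054 to 0.13 for EFNA4, -0.026 to 0.036 for EFNB2, -0.21 to 0.12 for EPHA1 and -0.049 to 0.018 for EPHB4. EFNB2 ranged from -0.11 to 0.040 with shPcyt2-1 and from -0.035 to 0.11 between the hairpins. With median-ratio scaling the sums of EPHB receptors (48.2 FPKM) and ephrin-B ligands (62.1 FPKM) with shPcyt2-1 and of all receptors with shPcyt2-2 (121.7 FPKM) moved by more than the SD. The cause of these changes was not tested.

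Same-numbered libraries of the groups deviated together weakly (correlations 0.0027, 0.062 and 0.191), each more with its own number. These values do not decide whether libraries were paired by number, which the labels do not state. In the main fit the numbers were read as names only. With the replicate block 4, 2, 7 and 0 genes passed in the 4 comparisons, with EPHA2 gained with shPcyt2-1 (adjusted P = 0.0222 by limma). The block gave shares over all tested genes of 30.4%, 15.9%, 30.3% and 0% in the same order. With the block and the GC correction together, EFNB1 no longer passed with shPcyt2-1 (adjusted P = 0.0656 by limma) and EPHA2 did (adjusted P = 0.0103 by limma). All tested genes that passed with shPcyt2-2 numbered 124 without an expression limit, 1027 with no mean-variance trend, 125 without shPcyt2-2 replicate 1 401 without shNT replicate 2 and 703 without shPcyt2-2 replicate 2, against 1585. With shPcyt2-1 they numbered 1831 without an expression limit, 1735 without shNT replicate 2 and 1160 and 1848 without shPcyt2-1 replicates 1 and 2, against 3400. Between the hairpins they numbered 1674 and 2080 without shPcyt2-1 replicates 1 and 2, and 2288 and 1989 without shPcyt2-2 replicates 1 and 2, against 3463. Merging all identical rows and the joint removal of block and GC trend were chosen after seeing the data. The former left the counts of the 9 genes at 3, 2, 7 and 0, where 26.7%, 12.5%, 27.2% and 0.00784% of all tested genes passed. The 2 libraries per group and the unknown depth limit the precision.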
